A study of Mus musculus with 5 samples.

Results

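The genes of autophagy and of mitophagy, the removal of mitochondria by autophagy, were examined in RNA-seq data from mouse tibialis anterior (TA) muscle. The 40 genes were taken by symbol from a list of the core machinery, its cargo receptors, the mitochondrial receptors, the main lysosomal membrane proteins and the transcription factors that act on them. All 40 were among the 17015 genes of the deposited table, and all 40 were among the 12148 genes that entered the test, those whose mean reached 0.5 FPKM. FPKM count sequenced fragments for each kilobase of a transcript and are scaled to make libraries comparable. The study compared muscle from WT control mice with muscle from skmNrip1-/- mice, which were made to lack Nrip1 (RIP140), a nuclear receptor coregulator, in skeletal muscle. All mice were sedentary males of 8 weeks. The mice carry floxed Nrip1 alleles made in C57BL/6J mice, which were crossed to a Cre line of C57BL/6JN mice, the skmNrip1-/- mice carry Cre recombinase driven by the myogenin promoter, and the controls are littermates without Cre. There were 3 libraries labelled WT control and 2 labelled skmNrip1-/-, and the labels do not say that each library is a separate mouse, so p-values measure the spread between libraries.

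In macroautophagy, a cup-shaped membrane grows around cytoplasm, closes into an autophagosome and fuses with the lysosome, where the contents are degraded. A kinase complex starts the process, a lipid kinase complex marks the site, membrane is delivered, and a pair of ubiquitin-like conjugation systems attach proteins of the ATG8 family to the membrane. Cargo receptors link ubiquitinated proteins or damaged mitochondria to ATG8 proteins. Skeletal muscle depends on this pathway for the turnover of proteins and mitochondria, and autophagy is induced in muscle by fasting and exercise. The transcripts measured here give the supply of mRNA and not the flux through the pathway, which is read from protein and membrane turnover.

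The libraries were checked before the genes were compared. FPKM sums ran from 969144 to 1288038, and the share of the sum from mitochondrial DNA transcripts was 45.4 to 50.7% in WT control and 58.6 and 60.9% in the libraries labelled skmNrip1-/-. The targeted gene, Nrip1, had 4.64 to 7.69 FPKM in WT control and 25.3 and 22.5 FPKM in the libraries labelled skmNrip1-/-, so the level of the gene does not match a knockout label. The paper checked this line by Nrip1 expression and RIP140 protein in gastrocnemius and heart. By its account the floxed segment is exon 4, which holds the start and stop codons. Each gene has a single value, which cannot separate the floxed exon from the rest of the transcript, and the directions given here rest on the labels. Fast muscle markers summed to 66215 to 89042 FPKM in WT control and 60287 to 62815 FPKM in the other group, with 3 of 7 markers lower without overlap. The 5 slow muscle markers summed to 14.2 to 22.1 FPKM and 43.8 to 58.9 FPKM, with 1 of 5 higher without overlap. That marker was Myl2, with 2.03, 1.85 and 9.68 FPKM in WT control and 42.1 and 33.6 FPKM in the other group. Red blood cell markers summed to 511 to 764 FPKM and 827 to 996 FPKM, with 4 of 5 higher without overlap. Summed markers of macrophages, fibroblasts and adipocytes had no member without overlap, while those of endothelium, Schwann cells and satellite cells each had 1 lower member, and the satellite cell pair summed to at most 1.13 FPKM. The part of mitochondrial transcripts, fiber type or blood in the values below was not tested, and in bulk muscle fewer cells of a type and less RNA per cell cannot be told apart.

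Transcripts of the autophagy and mitophagy genes were close to the WT control level in the libraries labelled skmNrip1-/-. The median log2 fold change of the 40 genes was -0.01, beside -0.00 for all genes tested, with 19 genes above 0 and 21 below. The fold changes ran from -0.47 for Tfeb to 0.59 for Rb1cc1, and 25 of the 40 genes differed by less than 0.1 on the log2 scale. None of the 40 genes was called, which needed a fold change of 1.2 or more with a limma adjusted p of 0.05 or less, where 0.37% of all genes tested were called higher and 0.0823% lower. At an unadjusted p of 0.05 or less, Rb1cc1 and Atg10 were higher and Tfeb was lower. These 2 higher genes are 5% of the 40, beside 6.57% of all genes tested, and the 1 lower gene is 2.5%, beside 5.33%. Libraries of the groups did not overlap for 7 genes that were higher (17.5%) and 3 that were lower (7.5%), beside 15.8% and 14.4% of all genes tested. Together these were 25% of the 40 genes and 30.2% of all genes tested.

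For 35 of the 40 genes the 95% interval of the fold change lay within 1.5-fold in either direction, and for all 40 it lay within 2-fold. Across all genes tested, 52.4% had an interval within 1.5-fold. A single gene compared over 3 and 2 libraries has 10 possible splits, so an exact permutation test cannot give a two-sided p below 0.1. Rescaling to TPM, which gives every library the same sum, shifted all genes tested to a median of -0.29 and the 40 genes to one of -0.31, and 17 of the 40 then changed sign.

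**Figure D1:**
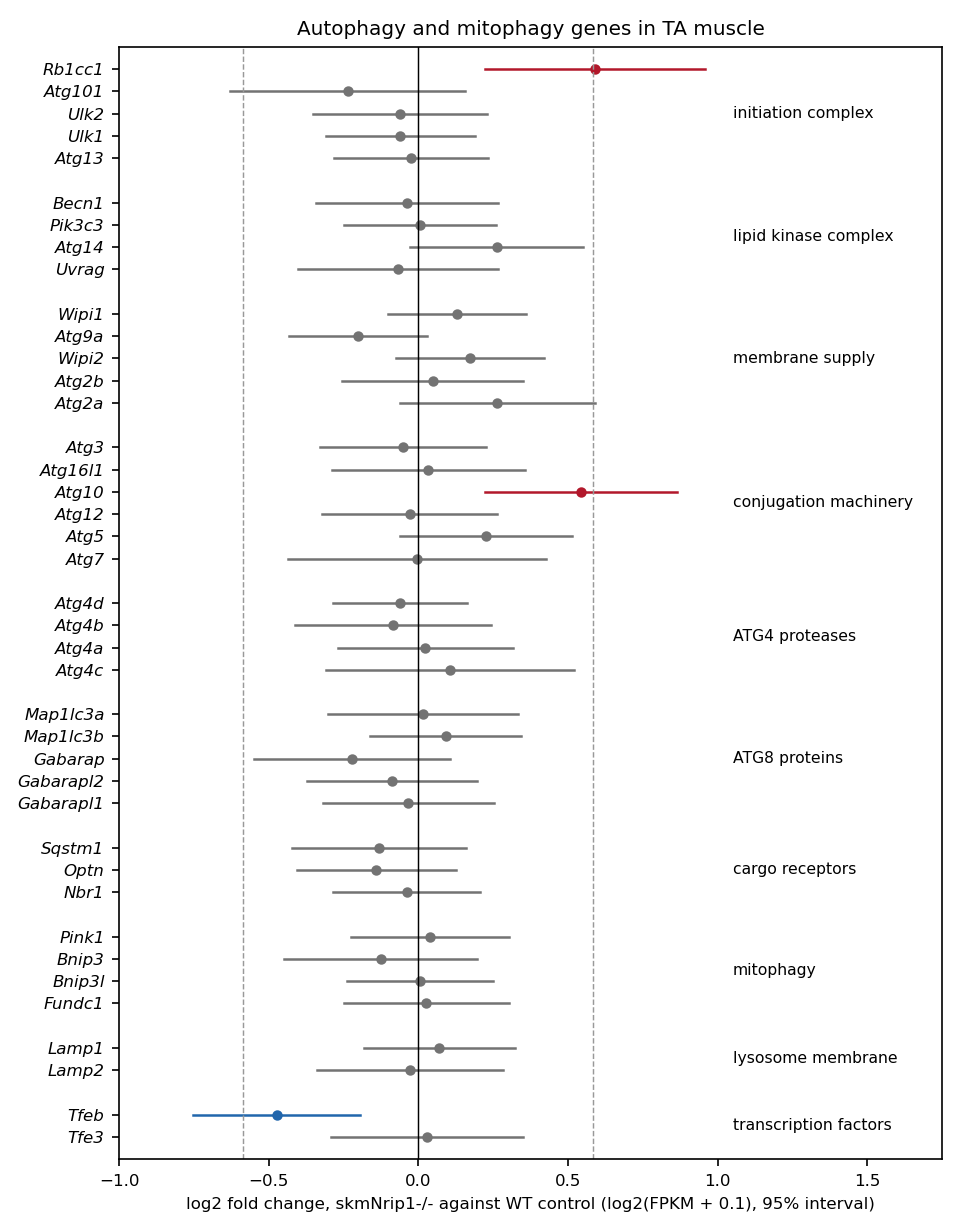
Log2 fold changes (x axis, log2(FPKM + 0.1), skmNrip1-/- against WT control) of the 40 genes (y axis, grouped by role and ordered by mean level), with bars for the 95% limma interval and dashed lines at 1.5-fold. Rb1cc1 and Atg10 (red) and Tfeb (blue), at an unadjusted p of 0.05 or less, have intervals that leave 0. The red pair lose this when the libraries are rescaled to TPM, which shifts all genes tested to a median of -0.29.

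The levels of the genes spanned a wide range. Pink1, Sqstm1, Lamp1, Map1lc3a and Bnip3, in that order, were the 5 genes with a mean over 100 FPKM. Mean levels under 10 FPKM were found for 13 genes, the lowest of them Atg4c at 2.04 ± 0.206 FPKM (SD, n = 3) in WT control. No gene was listed at 0 in any library. The sum of all 40 genes was 1983, 1884 and 1875 FPKM in the WT control libraries (replicates 1, 2 and 3) and 1939 and 1818 FPKM in the libraries labelled skmNrip1-/-, so the summed levels overlapped.

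**Figure D2:**
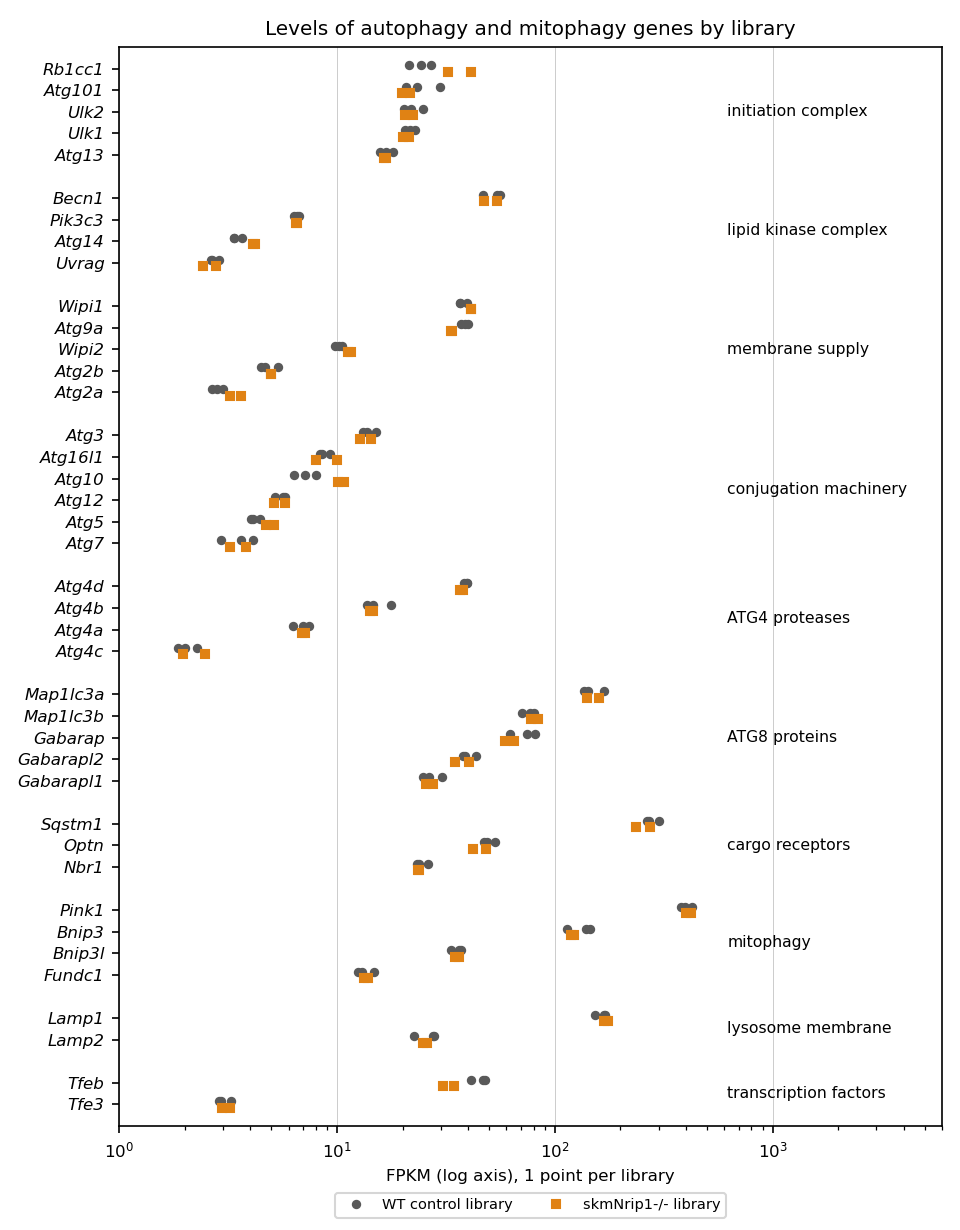
FPKM of each of the 40 genes (x axis, log scale) by role (y axis), with 1 point per library, gray circles for the 3 WT control libraries and orange squares for the 2 labelled skmNrip1-/-. The points of both groups lie together for most genes, and Pink1 has the highest mean and Atg4c the lowest.

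Transcription factors of the pathway were described first, because TFEB and TFE3 bind the promoters of lysosomal and autophagy genes. Tfeb (ENSMUSG00000023990, chromosome 17, 47737030 to 47792419, plus strand, GRCm38) had 46.9, 41.3 and 48.0 FPKM in the WT control libraries (replicates 1, 2 and 3), and 34.6 and 30.7 FPKM in skmNrip1-/- replicates 1 and 2. Both libraries labelled skmNrip1-/- were below every WT control library. The log2 fold change of Tfeb was -0.47 (standard error, SE, 0.12, 95% interval -0.75 to -0.19), with an unadjusted p of 0.00544 and a limma adjusted p of 0.209, so Tfeb was not called. Without skmNrip1-/- replicate 2 the unadjusted p of Tfeb was 0.0622. After rescaling to TPM the log2 fold change of Tfeb was -0.77 with an adjusted p of 0.0544, against the shift of all genes given above.

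Tfe3, the close relative of Tfeb, had 3.02 ± 0.205 FPKM (SD, n = 3) in WT control and 3.08 ± 0.182 FPKM (SD, n = 2) in the other group, with overlap and a log2 fold change of 0.03 (95% interval -0.29 to 0.35). The ratio of Tfeb to Tfe3, which does not depend on scaling between libraries, was 14.4 to 16.0 in WT control and 9.56 and 11.7 in the libraries labelled skmNrip1-/-. Mitf, another factor of this family that is not among the 40 genes, had 4.08 ± 0.485 FPKM (SD, n = 3) in WT control and 5.34 ± 0.384 FPKM (SD, n = 2) in the other group. Its log2 fold change was 0.38 (SE 0.14, limma adjusted p = 0.37). The ratio of Tfeb to Mitf was 9.05 to 13.0 in WT control and 5.47 and 6.82 in the other group. Tfeb was lower and Mitf higher without overlap, so this ratio could not overlap. The ratios given here and below were added after values were seen and were not tested. Their numerators, Tfeb, Rb1cc1 and Atg10, did not overlap between the groups on their own. Separation of these ratios was therefore likely and adds no support. Other ratios, of Map1lc3a to Map1lc3b, Ulk1 to Ulk2 and Bnip3 to Bnip3l, overlapped between the groups.

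**Figure D3:**
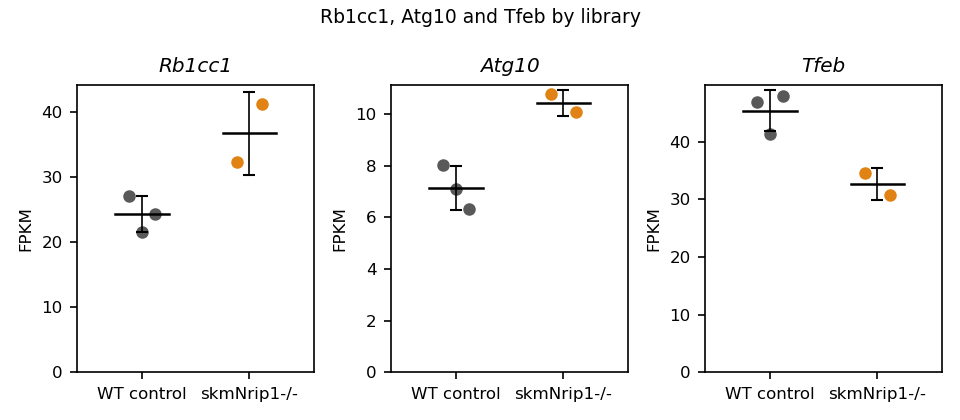
FPKM (y axes, from 0) of Rb1cc1, Atg10 and Tfeb in the 3 WT control libraries (gray) and the 2 labelled skmNrip1-/- (orange), with the mean as a line and the SD as bars. In each panel the points of the groups do not overlap, with Rb1cc1 and Atg10 higher and Tfeb lower in the libraries labelled skmNrip1-/-, and none of the 3 genes passed the adjusted threshold.

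The promoters were searched for TCACGTG, the core of the element that TFEB and TFE3 bind, on both strands. The core includes the E-box CACGTG, which other basic helix-loop-helix factors also bind. RefSeq promoters (GRCm38.p6, 250 bases before the start to 50 after) were at hand for 33 of the 40 genes, and 4 of the 33 (12.1%) held the core, namely Atg14, Atg3, Atg7 and Lamp1. The share was 4.29% of all genes with a promoter and 7.02% of those among the genes tested. Windows of 30 bases around each match follow, with the matched bases in capitals. They are shown because Tfeb was the member whose level was lowest against WT control. Among the 33 genes with a promoter at hand, these have its core element near a RefSeq start.
Atg14 (chr14:47568417-47568446, minus strand): aaacaaaatccCACGTGActggccctgagc
Atg3 (chr16:45158723-45158752, plus strand): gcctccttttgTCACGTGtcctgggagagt
Atg7 (chr6:114670952-114670981, plus strand): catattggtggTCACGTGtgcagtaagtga
Lamp1 (chr8:13159088-13159117, plus strand): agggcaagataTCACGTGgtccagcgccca

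The core began 95 bases before the RefSeq start of Atg3, 133 before that of Atg7 and 62 before that of Lamp1, and it spanned the start of Atg14. The RefSeq starts of Atg7 and Atg14 lie inside the spans of these genes in GENCODE M21. Atg7 begins there at 114643097, and the bases at its RefSeq start were not found near the start of any GENCODE transcript of Atg7. For the other 3 genes shown they were found. The promoter of Lamp1 held 4 copies of the core and that of Atg3 held 2. Median log2 fold changes were 0.03 for the 4 genes with the core and -0.03 for the genes whose promoter lacked these letters. Levels of the 4 genes are given with their roles below, and none of them was at an unadjusted p of 0.05 or less.

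The initiation complex joins the kinases ULK1 and ULK2 with the scaffold FIP200 (encoded by Rb1cc1), ATG13 and ATG101. Rb1cc1 (ENSMUSG00000025907, chromosome 1, 6206197 to 6276648, plus strand) had 27.1, 21.5 and 24.4 FPKM in the WT control libraries (replicates 1, 2 and 3) and 32.3 and 41.3 FPKM in skmNrip1-/- replicates 1 and 2. Each library labelled skmNrip1-/- was above every WT control library, and they differed from each other by more than the WT control libraries did. The log2 fold change of Rb1cc1 was 0.59 (SE 0.15, 95% interval 0.22 to 0.96), the highest value on this scale among the 40 genes, with an unadjusted p of 0.00698 and a limma adjusted p of 0.232. Its unadjusted p was 0.0693 without skmNrip1-/- replicate 2 and 0.0979 after rescaling to TPM. An antisense gene, 4732440D04Rik, overlaps exons of Rb1cc1. Of the words of 31 bases in the Rb1cc1 transcript, 21.4% are shared with other genes, mostly with Gm13961 (17.6%). How far the overlap and the shared words move the level of Rb1cc1 was not tested.

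Both kinases overlapped between the groups. Ulk1 had 21.7 ± 1.18 FPKM (SD, n = 3) in WT control and 20.7 ± 0.848 FPKM (SD, n = 2) in the other group, and Ulk2 had 22.4 ± 2.23 and 21.4 ± 1.24 FPKM. The 95% intervals of both kinases lay between -0.35 and 0.23 on the log2 scale. Atg13, whose product ties the complex together, had a log2 fold change of -0.02, and Atg101, which stabilizes ATG13, one of -0.24 with an interval from -0.63 to 0.16. The ratio of Rb1cc1 to Ulk1 was 0.943 to 1.32 in WT control and 1.51 and 2.05 in the other group. Within the complex, the ranges of Rb1cc1, Atg101, Ulk2 and Ulk1 overlapped from each gene to the next, and Atg13 was below Ulk1 in every library.

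The lipid kinase complex makes the phosphoinositide that marks the growing membrane, with Pik3c3 (VPS34) as the catalytic subunit and Becn1 (Beclin 1) as a regulatory subunit. Becn1 (ENSMUSG00000035086, chromosome 11, 101285952 to 101302286) was the most abundant of the 4 genes, with 54.1, 56.3 and 46.6 FPKM in WT control and 54.6 and 47.3 FPKM in the other group. The groups overlapped and the log2 fold change was -0.04. Becn1 made up 78.2 to 81.3% of the summed level of the 4 genes in every library, although 48.3% of its words of 31 bases are shared with other genes, nearly all with the overlapping gene Cntd1. Pik3c3 had 6.52 ± 0.177 FPKM (SD, n = 3) in WT control and 6.54 ± 0.0716 FPKM (SD, n = 2) in the other group, a log2 fold change of 0.00 (95% interval -0.25 to 0.26).

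The partners that direct this complex differed in their values. Atg14, which directs the complex to autophagosome formation, had 3.66, 3.38 and 3.36 FPKM in WT control and 4.12 and 4.22 FPKM in the other group, higher without overlap. Its log2 fold change was 0.26 (SE 0.12, limma adjusted p = 0.467). After rescaling to TPM it was -0.03, where all genes tested had a median of -0.29. Uvrag, the partner in the endosomal form of the complex, had 2.72 ± 0.124 and 2.59 ± 0.256 FPKM. The levels kept the order Becn1, Pik3c3, Atg14 and Uvrag without overlap between neighbors.

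Among the 5 genes of membrane supply, 3 were higher and 1 was lower without overlap, where 15.8% and 14.4% of all genes tested were, and none was at an unadjusted p of 0.05 or less. Wipi1 (ENSMUSG00000041895, chromosome 11, 109573331 to 109611967), a reader of the lipid mark, had 36.7, 39.4 and 36.7 FPKM in WT control and 41.3 and 41.1 FPKM in the other group. Wipi2, which recruits ATG16L1 to the mark, had 10.2 ± 0.398 and 11.5 ± 0.248 FPKM. The log2 fold changes of Wipi1 and Wipi2 were 0.13 and 0.17. Both turned negative after rescaling to TPM, where all genes tested had a median of -0.29.

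ATG9A is the membrane protein of the vesicles that seed the autophagosome, and the ATG2 proteins transfer lipid to it. Atg9a had 37.0, 38.8 and 39.8 FPKM in WT control and 33.6 and 33.4 FPKM in the other group, lower without overlap, with a log2 fold change of -0.20 (SE 0.10, limma adjusted p = 0.48). Of the words of 31 bases of Atg9a, 43.9% are shared with other genes, mostly with the overlapping transcript Gm29253. Atg2a had 2.83 ± 0.175 and 3.41 ± 0.288 FPKM, higher without overlap (log2 fold change 0.26, limma adjusted p = 0.52). After rescaling to TPM its log2 fold change was -0.03, where all genes tested had a median of -0.29. The paralog Atg2b had 4.84 ± 0.444 and 4.99 ± 0.00964 FPKM with overlap. The summed level of the 5 genes was 90.8 to 96.9 FPKM in WT control and 94.3 and 94.7 FPKM in the other group.

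The conjugation machinery attaches ATG12 to ATG5 and ATG8 proteins to lipid. Atg10 (ENSMUSG00000021619, chromosome 13, 90935356 to 91223968, minus strand), the E2-like enzyme that transfers ATG12 to ATG5, had 8.03, 7.09 and 6.33 FPKM in the WT control libraries (replicates 1, 2 and 3) and 10.8 and 10.1 FPKM in skmNrip1-/- replicates 1 and 2. Both libraries labelled skmNrip1-/- were above every WT control library. The log2 fold change of Atg10 was 0.54 (SE 0.13, 95% interval 0.22 to 0.86), with an unadjusted p of 0.00559 and a limma adjusted p of 0.211. The unadjusted p of Atg10 was 0.0977 after rescaling to TPM, and it was 0.05 or less without each library in turn. Of its words of 31 bases, 1.49% are shared with other genes.

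Atg3, the E2-like enzyme for the ATG8 proteins, had the highest mean of this machinery (ENSMUSG00000022663, chromosome 16, 45158785 to 45188538), with 13.8, 13.2 and 15.1 FPKM in WT control and 14.3 and 12.8 FPKM in the other group. The groups overlapped, and the log2 fold change was -0.05. The ratio of Atg10 to Atg3 was 0.418 to 0.583 in WT control and 0.755 and 0.786 in the other group. Atg7, the E1-like enzyme that serves both E2-like enzymes, had 3.55 ± 0.605 and 3.52 ± 0.423 FPKM, the widest interval of the 40 genes, -0.43 to 0.43 on the log2 scale. Atg5 had 4.11, 4.43 and 4.04 FPKM in WT control and 4.72 and 5.12 FPKM in the other group, higher without overlap. Its log2 fold change was 0.23 (limma adjusted p = 0.534). The value turned negative after rescaling to TPM, where all genes tested had a median of -0.29. The partners of Atg5, Atg12 and Atg16l1, had log2 fold changes of -0.03 and 0.03 with overlap.

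The ATG4 proteases trim ATG8 proteins before conjugation and remove them from membranes afterward. Atg4d (ENSMUSG00000002820, chromosome 9, 21265293 to 21277772) was the most abundant, with 39.4, 38.1 and 39.7 FPKM in WT control and 38.0 and 36.9 FPKM in the other group. These libraries did not overlap, yet the log2 fold change was only -0.06 (95% interval -0.29 to 0.16). Atg4d made up 58.7 to 63.2% of the summed level of the 4 proteases, Atg4b 22.0 to 27.4%, Atg4a at least 9.95% and Atg4c 2.98 to 4.06%, an order that held in every library. Log2 fold changes of Atg4b, Atg4a and Atg4c were -0.09, 0.02 and 0.11 with overlap. Of the words of 31 bases of Atg4a, 74.9% are shared with the pseudogene Atg4a-ps, which leaves its level uncertain, and 20.4% of those of Atg4d are shared with the overlapping gene Kri1.

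The ATG8 proteins themselves were among the more abundant transcripts. Map1lc3a (ENSMUSG00000027602, chromosome 2, 155276297 to 155278073), which encodes LC3A, had 168, 136 and 142 FPKM in the WT control libraries (replicates 1, 2 and 3) and 160 and 140 FPKM in the other group. Its log2 fold change was 0.02 (95% interval -0.30 to 0.33), and the spread among WT control libraries was larger than the difference between groups. Map1lc3b, which encodes LC3B, had 75.8 ± 4.74 FPKM (SD, n = 3) and 80.7 ± 4.26 FPKM (SD, n = 2), a log2 fold change of 0.09. Gabarap had 72.7 ± 9.44 and 62.1 ± 3.94 FPKM, a log2 fold change of -0.22 (95% interval -0.55 to 0.11). Without WT control replicate 2, Gabarap and Tfeb were the genes that were lower at an unadjusted p of 0.05 or less.

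The remaining pair, Gabarapl1 and Gabarapl2, had log2 fold changes of -0.03 and -0.09, and all 5 ATG8 genes had libraries that overlapped. Map1lc3a was 39.6 to 42.5% of the summed ATG8 level in each library, with overlap between the groups. The share of Map1lc3b was 20.1 to 21.4% in WT control and 22.3 and 23.0% in the other group, that of Gabarap was 18.5 to 20.8% against 17.2 and 17.5%, and that of Gabarapl2 was 10.8 to 11.2% against 10.7 and 10.3%. Within the sum, Map1lc3b was higher and Gabarap and Gabarapl2 were lower without overlap. Shares of a sum are tied to one another, so these are not separate differences, and they were not tested. The ranges of Map1lc3b and Gabarap overlapped, whereas the other neighbors in the order, Map1lc3a above them and Gabarapl2 and Gabarapl1 below, did not. Shared words of 31 bases were 21.3% for Gabarapl2, 19.5% for Gabarapl1 and 13.0% for Map1lc3b, and 0 for Map1lc3a and Gabarap.

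**Figure D4:**
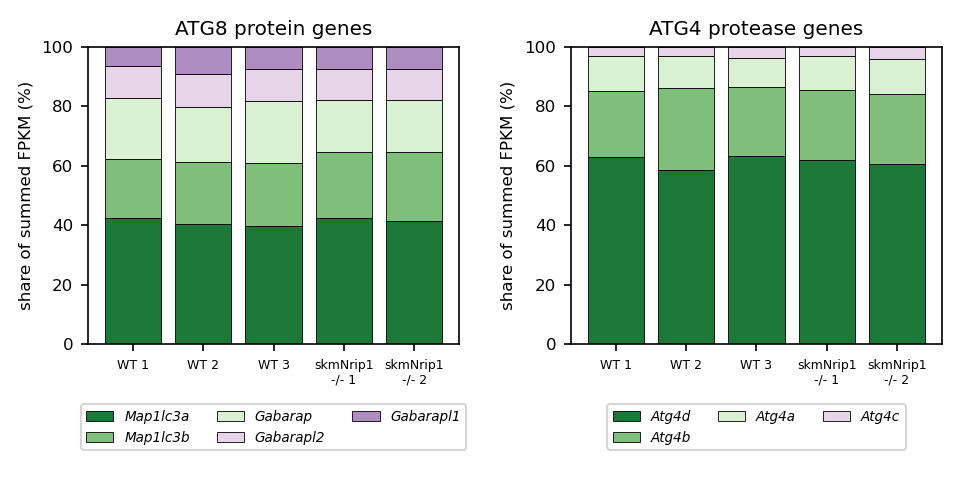
Share of the summed FPKM (y axes, %) held by each ATG8 gene (left) and each ATG4 protease gene (right) in the 5 libraries (x axes). Map1lc3a holds 39.6 to 42.5% of the ATG8 sum and Atg4d 58.7 to 63.2% of the ATG4 sum, and the shares of the groups overlap for both genes, while those of Map1lc3b, Gabarap and Gabarapl2 do not.

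Cargo receptors bind ubiquitinated cargo and ATG8 proteins. Sqstm1 (ENSMUSG00000015837, chromosome 11, 50199366 to 50210827), which encodes p62 and is itself degraded by autophagy, had 301, 264 and 272 FPKM in WT control and 274 and 236 FPKM in the other group. These ranges overlapped, with a log2 fold change of -0.13 (95% interval -0.42 to 0.16). The share of Sqstm1 in the sum of the 3 receptors was 78.1 to 79.8%, and 20.9% of its words of 31 bases are shared with the overlapping gene Mrnip. Optn, a receptor used in mitophagy, had 49.8 ± 2.96 and 45.3 ± 4.11 FPKM (log2 fold change -0.14), and Nbr1, which acts with p62, had 24.4 ± 1.46 and 23.7 ± 0.0807 FPKM (log2 fold change -0.04). All 3 receptors were below 0 in fold change and none was at an unadjusted p of 0.05 or less.

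Mitophagy genes fall into the kinase PINK1, which marks depolarized mitochondria, and outer membrane receptors that bind ATG8 proteins directly. Pink1 (ENSMUSG00000028756, chromosome 4, 138313409 to 138326307) was the most abundant of all 40 genes, with 425, 396 and 381 FPKM in WT control and 423 and 399 FPKM in the other group. The groups overlapped, and the log2 fold change was 0.04 (95% interval -0.22 to 0.30). Bnip3, a receptor induced by hypoxia, had 113, 140 and 146 FPKM in WT control and 123 and 119 FPKM in the other group (log2 fold change -0.13). WT control replicate 1 was the lowest library for Bnip3, and without it the genes at an unadjusted p of 0.05 or less that were lower numbered 3, namely Tfeb, Bnip3 and Atg9a. The level of Bnip3 is uncertain, since 74.7% of its words of 31 bases are shared with other genes.

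The paralog of Bnip3, Bnip3l (NIX), which clears mitochondria from maturing red blood cells, had 35.5 ± 2.06 and 35.6 ± 1.01 FPKM. Its log2 fold change was 0.01 (95% interval -0.24 to 0.25), while red blood cell markers were higher as given above, and the part of blood in this value was not tested. Of its words of 31 bases, 27.4% are shared with the pseudogene Bnip3l-ps. Fundc1, another hypoxia-related receptor, had 13.4 ± 1.17 and 13.6 ± 0.386 FPKM. All 4 mitophagy genes overlapped between groups in which mitochondrial DNA transcripts did not overlap as a share of the FPKM sum.

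LAMP1 and LAMP2 are the main glycoproteins of the lysosomal membrane, and LAMP2 is needed for fusion with autophagosomes. Lamp1 (ENSMUSG00000031447, chromosome 8, 13159161 to 13175338) had 170, 168 and 152 FPKM in WT control and 176 and 168 FPKM in the other group, a log2 fold change of 0.07. Lamp2 had 26.0 ± 3.08 and 25.4 ± 0.834 FPKM, with a log2 fold change of -0.03. Both genes overlapped between groups, and Lamp1 was 84.6 to 88.3% of their sum. The promoter of Lamp1 is the one with 4 copies of the core shown above.

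Other genes of the pathway were compared in 5 lists. Of 27 other autophagy factors, Snap29, a SNARE protein of autophagosome fusion, was higher at an unadjusted p of 0.05 or less (log2 fold change 0.35, limma adjusted p = 0.375), and none was lower. This is 3.7% of the list, beside 6.57% of all genes tested that were higher at that p. The lowest log2 fold change in that list was -0.34 for Tex264, a receptor for autophagy of the endoplasmic reticulum, which was not at that p. Of 14 other mitophagy factors, Nipsnap2, a mitochondrial protein that binds ATG8 proteins on damaged mitochondria, had 337, 385 and 385 FPKM in WT control and 526 and 486 FPKM in the other group, without overlap. Its log2 fold change was 0.46 (limma adjusted p = 0.232), and the lowest in that list was -0.26 for the mitophagy receptor Fkbp8. Nipsnap2 alone was at an unadjusted p of 0.05 or less, 7.14% of its list, beside 6.57% of all genes tested that were higher. The medians of these lists were 0.01 and 0.09.

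The lysosomal lists had medians below 0. Of 24 tested lysosomal hydrolases and transporters, 5 were lower at an unadjusted p of 0.05 or less (20.8%, beside 5.33% of all genes tested) and none was higher, with a median of -0.12. Among them were Ctsz (cathepsin Z) at -0.53, Hexa at -0.38, Gusb at -0.37 and Gaa, the enzyme that degrades lysosomal glycogen, at -0.29 on the log2 scale. The adjusted p of these 5 genes was between 0.19 and 0.314 in limma. Ctsz had 20.5, 17.4 and 20.3 FPKM in WT control and 12.7 and 14.2 FPKM in the other group. The count was 12 after rescaling to TPM. All genes tested then had a median of -0.29, and 3691 of the 12148 were at that p in either direction. The count of lower hydrolases and transporters was 2 without WT control replicate 3 and 2 with the replicate number as a block. No skmNrip1-/- library has the number 3, so the block fit rests on replicates 1 and 2. Its fold changes equal those without WT control replicate 3. The highest value was 0.21 for Npc1, the lysosomal cholesterol exporter.

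The core shown above was found in 8 of the 20 hydrolase and transporter promoters at hand (40%), Gaa among them. The median log2 fold change was -0.19 for the 7 genes with the core that were tested and -0.17 for those without it. Of the 17 subunits of the V-ATPase, the proton pump that acidifies the lysosome, none was at an unadjusted p of 0.05 or less, and 14 were below 0, with a median of -0.07. After rescaling to TPM, 9 of the 17 were lower at that p. All genes tested then had a median of -0.29, and 3691 of the 12148 were at that p in either direction. Without each library in turn, the median of the subunits was -0.13 to -0.04. They ran from -0.28 for Atp6v0c to 0.08 for Atp6v1e1. Of 22 regulators of mTORC1 and TFEB, Mitf alone was at that p and was higher, 4.55% of the list, beside 6.57% of all genes tested. After rescaling to TPM Mitf was not at that p, and 9 others were lower at it. The median of the regulators was -0.02, and the lowest value was -0.26, for Rragd. No gene of the 5 lists was called.

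**Figure D5:**
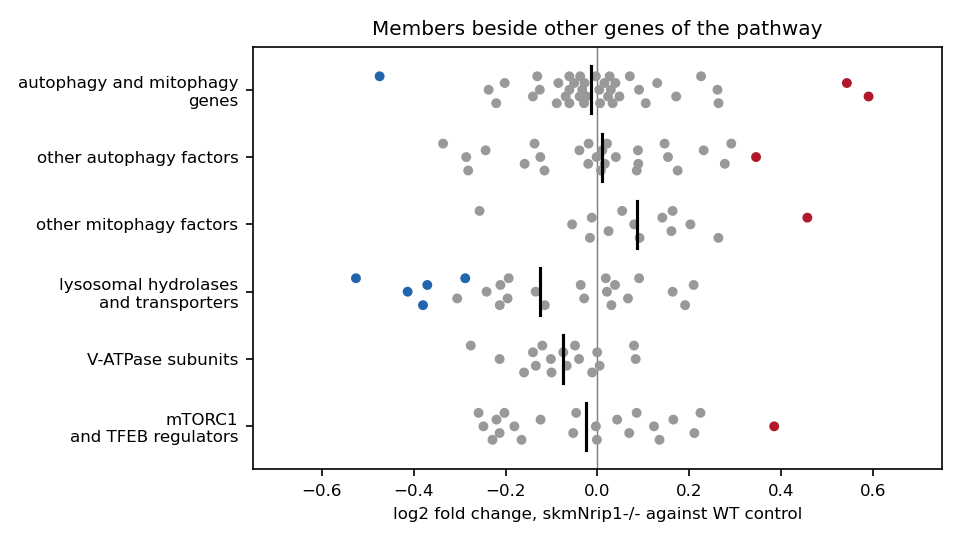
Log2 fold changes (x axis, skmNrip1-/- against WT control) of the 40 genes and of 5 other lists of the pathway (y axis), with 1 point per gene, red or blue for an unadjusted p of 0.05 or less and a black bar at each median. The medians run from -0.12 for lysosomal hydrolases and transporters to 0.09 for other mitophagy factors, and after rescaling to TPM all 6 are below 0, at -0.42 to -0.21, with all genes at -0.29.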

How the data were processed

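RNA from TA muscle was made into libraries with the NEBNext Ultra RNA kit and sequenced as paired reads of 150 bases. The authors quantified reads with Salmon 1.10.2 on mm10, summarized them to genes with tximport and tested them with DESeq2 1.44.0. The deposited table holds FPKM for 5 libraries. How FPKM were computed and the annotation release are not given in the sources used here. The median of ratios factor, the typical ratio of a library's values to those of all libraries, was 1.00 for all 5. Fragment numbers are not in the table, so depth is unknown and no counting interval is given. The study's legend gives 3 mice per group, and 2 skmNrip1-/- libraries were used here. The table also holds the authors' log2 fold changes and adjusted p-values, which were not used.

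Libraries were grouped by the record's labels. The 12148 genes whose mean reached 0.5 FPKM were compared on log2(FPKM + 0.1) with limma 3.58.1 (lmFit, eBayes with trend, R 4.3.3), all 5 libraries in 1 fit without covariates, and Benjamini-Hochberg adjustment over all of them. Fold changes on this scale understate those of low genes. Called genes had a fold change of 1.2 or more with an adjusted p of 0.05 or less, thresholds taken from the study. The fit was tested on simulated data.

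Values per library are given for genes at an unadjusted p of 0.05 or less, for genes without overlap whose log2 fold change is at least 0.3 in size, and for the most abundant gene of each role. From the other lists, the largest rise and fall were named. The remaining genes at an unadjusted p, the per-library values of other genes and the ratios were added after values were seen. A gene of the other lists that meets this rule is not reported here. The members and lists were chosen with earlier results of these data known. Positions, transcript lengths, shared words of 31 bases and overlaps came from GENCODE M21 (GRCm38), and promoters from RefSeq. Alternatives were pseudocounts of 1 and 0.01, no minimum or a minimum of 1 FPKM, TPM or median of ratios scaling, robust eBayes or eBayes without trend, a replicate block, and each library left out in turn. Tables and figures were made with Python 3.11.15, pandas 2.3.3, numpy 2.4.6 and matplotlib 3.10.9.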

Additional observations from a re-analysis of the deposited data

How the results depend on the processing

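No gene of the 40 and none of the 5 other lists was called under any alternative, and the lowest adjusted p of a member was 0.0544, for Tfeb after rescaling to TPM. Of 444 comparisons of list counts and medians with their values as reported, 400 stayed within their tolerance and 44 moved. Rescaling to TPM gave 0 members higher and 15 lower at an unadjusted p of 0.05 or less, and 0 and 8 other autophagy factors. It gave 0 and 2 other mitophagy factors, and 0 and 9 regulators of mTORC1 and TFEB. Lower at that p were also 12 hydrolases and transporters and 9 V-ATPase subunits. With this scaling, 3691 of the 12148 genes tested were at that p in either direction, in place of 1445. Medians were then -0.31 for the members, -0.28, -0.21, -0.42, -0.37 and -0.32 for the other lists (autophagy factors, mitophagy factors, hydrolases, V-ATPase, regulators), with all genes at -0.29, and 29 genes were called higher and 59 lower in place of 45 and 10. Relative to all genes these medians were -0.02, 0.01, 0.08, -0.13, -0.08 and -0.03. Without each library in turn, the members at that p were 1 to 2 higher and 0 to 3 lower with a median of -0.024 to 0.021, other autophagy factors 0 to 3 and 0 to 2 (median -0.04 to 0.08), other mitophagy factors 0 to 3 and 0 to 1 (0.04 to 0.14), hydrolases 1 to 6 lower (-0.144 to -0.0625), V-ATPase subunits 0 to 1 lower (-0.13 to -0.04), and regulators 0 to 1 higher and 0 to 3 lower (-0.073 to -0.023). Leaving out 1 of the 2 skmNrip1-/- libraries assumes that the lone library varies like the WT control group. Over all alternatives the log2 fold change was 0.29 to 0.77 for Rb1cc1, 0.25 to 0.63 for Atg10 and -0.77 to -0.39 for Tfeb, and all 3 kept their sign. The groups share 2 replicate numbers, and deviations of same-numbered libraries correlated at 0.065 and 0.095 across genes. The deviations of the 2 skmNrip1-/- libraries mirror each other, so these correlations cannot decide on pairing. The numbers were not taken as pairs, because the libraries of the groups come from different mice. With the replicate block, 2 hydrolases were lower (median -0.0625). The members at an unadjusted p of 0.05 or less were Rb1cc1, Atg10 and Tfeb, and 22 genes were called in all, in place of 55. No skmNrip1-/- library has the number 3, so the block fit rests on replicates 1 and 2. Its fold changes equal those without WT control replicate 3, so these settings are not separate checks of the fold changes. The causes of the differences between settings were not tested. The 95% interval reached beyond 1.5-fold for 5 of the 40 genes, and the depth of the libraries is unknown.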

Other observations

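Within WT control, replicate 1 differed from replicates 2 and 3 by transcript length. Its log2 deviation from their mean had a Spearman rho of -0.41 with the length of the longest transcript over the 40 genes and -0.35 over 12138 genes tested, points that share the same libraries. WT control replicate 1 was the highest library for 10 of the 40 genes and the lowest for 11. Of the shorter transcripts, Map1lc3a, Atg101, Gabarap and Gabarapl2 had replicate 1 as the highest library, while Bnip3 and Gabarapl1 had it as the lowest. The log2 fold change between groups had a rho of 0.21 with length and -0.22 with GC content over the 40 genes, and 0.10 and -0.30 over all genes tested, and a rho of -0.37 with mean FPKM over the 40 genes.

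Exons of 14 of the 40 genes overlap another annotated gene. Words of 31 bases shared with other genes made up at least 10% of the transcript words of 11 of the 40 genes, from 13.0% for Map1lc3b to 74.9% for Atg4a. Among the 3 genes at an unadjusted p of 0.05 or less, this share was 21.4% for Rb1cc1, 1.49% for Atg10 and 0.0433% for Tfeb.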
